A study of Mus musculus with 12 samples.

Results

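In adult male mouse liver, miR-21a was followed through both arms of its hairpin, mmu-miR-21a-5p and mmu-miR-21a-3p. Both were chosen by name, and both were listed, so they make up 2 of the 386 rows of the deposited table of mature miRNAs. The 12 sons were wild-type mice of strain C57BL/6, born to C57BL/6J dams, and their livers were taken at postnatal day 84 after a fast. Mothers and sons each received either a control chow (7% simple carbohydrates and 3% lipids by weight) or an obesogenic diet (10% simple carbohydrates and 20% lipids, with sweetened condensed milk offered beside it), and the design crossed both diets. Each group has 3 libraries and a name whose first letter is the mother's diet and whose second is the son's: CC for control in both, CO for obesogenic-fed sons of control mothers, OC for control-fed sons of obesogenic mothers, and OO for obesogenic in both. Litter size was set to 6 pups on day 3, and the sons' own diet began at weaning on day 21. The labels name neither the mother nor the litter of a son, so the p-values given here measure the spread between these 12 libraries. The title prefixes split fully with maternal diet, so whatever they stand for and the mother's diet cannot be told apart.

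A miRNA gene is transcribed as a longer RNA whose hairpin is cut into a short duplex. Usually 1 strand of the duplex, the guide, is kept in an Argonaute protein and pairs through its seed, the bases at positions 2 to 8, with sites in target mRNAs, which are then translated less or degraded. miR-21 is an abundant miRNA in most mammalian tissues and is known in liver for its links with inflammation, steatosis and fibrosis. Its 5p arm is the usual guide, and a textbook target is Pdcd4, an inhibitor of translation. The Mir21a hairpin lies at chr11:86584067-86584158 on the minus strand of GRCm38. In the GENCODE annotation this stretch is within exon 12 of Vmp1-201, inside the UTR part of that exon, on the same strand. Vmp1 encodes a membrane protein needed for autophagy.

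The mature sequences of both arms are shown 5′ to 3′ with the seed in capitals, together with miR-21c and miR-21b, the related rows that share most of their letters with the 5p arm. All are from RefSeq on GRCm38.p6.
mmu-miR-21a-5p: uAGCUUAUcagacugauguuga
mmu-miR-21a-3p: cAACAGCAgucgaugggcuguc
mmu-miR-21c: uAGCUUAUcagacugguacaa
mmu-miR-21b: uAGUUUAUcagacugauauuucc

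The 5p arm occupies chr11:86584120-86584141 and the 3p arm chr11:86584082-86584103, each 22 bases long. Of the 1679 mature names in the reference table, miR-21c, of 21 bases, was the other one with the seed of miR-21a-5p. No other name had the seed of miR-21a-3p. The reference matched 320 of the 386 listed rows by name, so the remaining rows were not checked for either seed. Counted from 1 at the 5′ end, and with the base of miR-21a-5p first, miR-21c differs by A16G, G18A, U19C, U20A and G21A, so the first 15 bases are shared. miR-21b, of 23 bases, differs by C4U, which lies in the seed, and by G18A, G21U and A22C, and its longest run shared with miR-21a-5p covers 13 bases. Mir21c lies on chromosome 8 and Mir21b on chromosome 3.

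Levels are given in CPM, the deposited unit, in which the reads of a row are scaled to 1 fixed total in every library. The scaling totals recovered from the table were 5.45 to 22.2 M reads (mega-reads) per library, lowest in CO replicate 3 and highest in OC replicate 1. Their mean was 10.6 ± 3.78 M after control mothers and 16.7 ± 4.80 M after obesogenic mothers (SD, n = 6 each). Depth was thus unequal between the maternal diets and partly confounded with them. The libraries carried the miRNAs that mark liver: miR-122-5p, the hepatocyte miRNA, stood at 19991 to 28851 CPM, and miR-192-5p was the most abundant row in the table. In a bulk library a lower level can come from fewer cells of a type or from less RNA per cell, and these cannot be told apart.

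miR-21a-5p was the 4th most abundant row, with a mean of 49286 CPM and 4.88% of the mean summed values. It ranked 4 in 8 libraries and 5 in the other 4. Directly above it were miR-192-5p (246349 CPM), miR-22-3p (175173 CPM) and miR-148a-3p (83864 CPM), each higher than miR-21a-5p in all 12 libraries. Below it came miR-30a-5p at 42384 CPM, which exceeded miR-21a-5p in 3 libraries, miR-10a-5p at 37525 CPM, which exceeded it in 0, and miR-143-3p at 36163 CPM, which exceeded it in 1. The order of miR-21a-5p and miR-30a-5p was therefore not the same in every liver, while its place under miR-148a-3p was. miR-21a-3p ranked 102 by its mean of 191 CPM, and between 86 and 126 in single libraries. Its neighbours, from miR-328-3p at 204 CPM to miR-200b-3p at 188 CPM, were each above it in 6 or 7 of the 12 libraries, so its exact rank is not resolved.

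**Figure D1:**
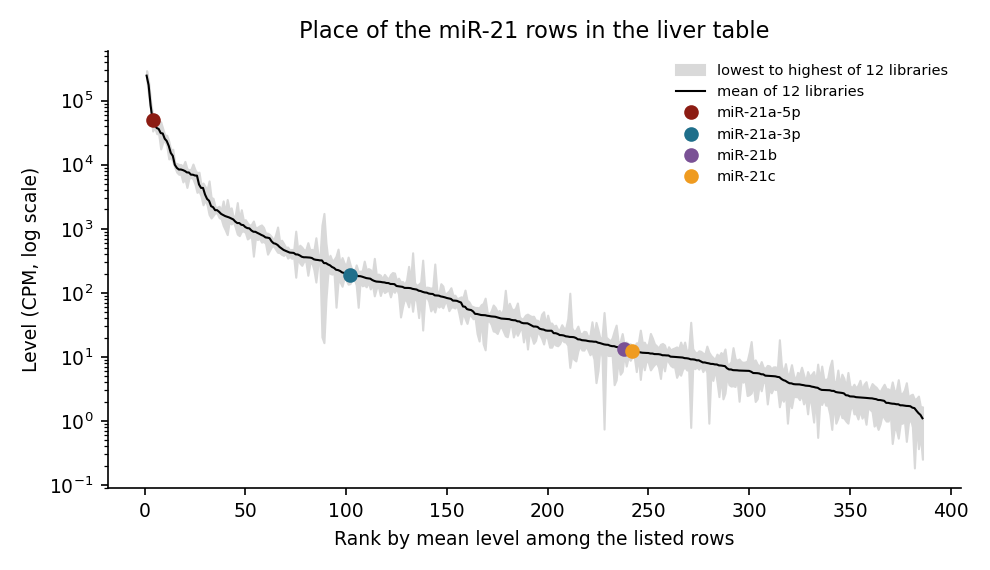
Mean level (CPM, log scale) of the 386 listed rows against their rank over 12 libraries, with a grey band from the lowest to the highest library; the 4 miR-21 rows are marked. miR-21a-5p sits at rank 4, miR-21a-3p at rank 102, and miR-21b and miR-21c lie next to each other at ranks 238 and 242.

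In the CC livers, with control diet in both generations, miR-21a-5p stood at 44937, 52323 and 51536 CPM (mean 49599 ± 4056, SD, n = 3). In CO it stood at 54549, 59538 and 52128 CPM (mean 55405 ± 3778). OC livers held 42675, 58667 and 40413 CPM (mean 47252 ± 9950), and OO livers 52511, 48584 and 33571 CPM (mean 44889 ± 9996). The order of the means was CO, CC, OC and OO. CC and OC, and OC and OO, differed in their means by less than the SD within OC. CO and CC differed by more than the SD of either, but their ranges overlapped, with the lowest CO library just under the highest CC library. The ranges of all 4 groups overlapped with each other. The spread was wider in both groups with obesogenic mothers, with coefficients of variation of 21.1% in OC and 22.3% in OO against 8.18% in CC and 6.82% in CO. That contrast rests on OC replicate 2, the second highest of the 12 libraries, and on OO replicate 3, the lowest. Both of these libraries have a title stem, of unstated meaning, that the other titles lack.

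Counting error was small beside this spread. The 5p arm had from 283951 reads in CO replicate 3 to 1046095 in OO replicate 2. The 3p arm had from 767 reads, in CO replicate 3, to 4115. For those 767 reads the exact 95% binomial (Clopper-Pearson) interval was 131 to 151 CPM. Such intervals cover counting error only, since reads without molecular identifiers are not independent molecules.

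miR-21a-3p, the strand that is usually discarded, was far less abundant. It stood at 141, 219 and 213 CPM in CC (mean 191 ± 43.3, SD, n = 3), at 272, 275 and 141 CPM in CO (229 ± 76.6), at 162, 234 and 142 CPM in OC (179 ± 48.3) and at 190, 169 and 139 CPM in OO (166 ± 25.4). The order of the group means, CO, CC, OC and OO, was the same as for the 5p arm. In each group 1 library lay at 139 to 142 CPM, so the groups shared their lower limit and overlapped. The highest levels were those of CO replicates 1 and 2.

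**Figure D2:**
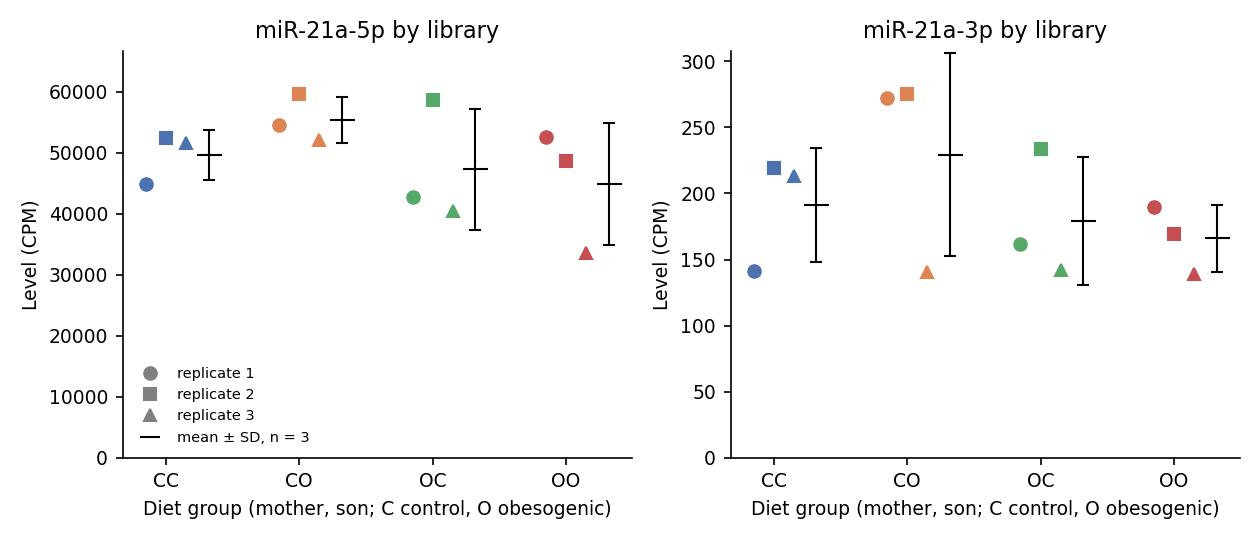
Level in CPM of miR-21a-5p (left) and miR-21a-3p (right) in each library by diet group, with the mean and SD (n = 3) beside the points. CO has the highest mean of both arms, OO replicate 3 is the lowest 5p library at 33571 CPM, and every group has a 3p library between 139 and 142 CPM.

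The son's own diet was the first comparison, taken as the mean of CO against CC and OO against OC. With 6 sons on each diet, miR-21a-5p averaged 50147 ± 8880 CPM on the obesogenic diet and 48425 ± 6916 CPM on control diet (SD). The log2 change of CPM + 1 was 0.04 (SE 0.122, 95% interval -0.23 to 0.31), which did not pass with limma (Benjamini-Hochberg adjusted p = 0.930 over all rows). On the fold scale the interval ran from 0.855 to 1.24. For miR-21a-3p the means were 198 ± 61.7 CPM on the obesogenic diet and 185 ± 41.6 CPM on control diet, with a log2 change of 0.07 (interval -0.37 to 0.51, limma adjusted p = 0.930). So 0 of the 2 arms passed, where 0.777% of all rows did (3 lower and 0 higher on the obesogenic diet at the deposited scaling, 5 lower and 2 higher with TMM factors, 6 lower and 2 higher with median-of-ratios factors). The sign of these changes depended on single libraries: for the 5p arm it turned to -0.02 without OO replicate 1 and to -0.01 without OC replicate 3. For the 3p arm it turned to between -0.03 and -0.01 without CC replicate 1, CO replicate 1, CO replicate 2 or OC replicate 3.

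Split by mother, the own-diet changes of miR-21a-5p had opposite signs. After control mothers (CO against CC) the log2 change was 0.16 (interval -0.22 to 0.54, limma adjusted p = 0.694), and after obesogenic mothers (OO against OC) it was -0.08 (interval -0.46 to 0.30, adjusted p = 0.982). The difference between them, the interaction, was -0.24 (SE 0.244, interval -0.78 to 0.29, limma adjusted p = 0.780), so different responses were not shown. For miR-21a-3p the same 3 log2 values were 0.22 (interval -0.40 to 0.84), -0.09 (-0.71 to 0.53) and -0.31 (-1.19 to 0.57), with limma adjusted p of 0.736, 0.982 and 0.787. The 3p value in CO against CC ran from 0.02 without CC replicate 1 to 0.54 without CO replicate 3, and the 3p interaction from -0.10 without OC replicate 2 to -0.63 without CO replicate 3. The 5p interaction was -0.04 without OO replicate 3 and -0.07 without OC replicate 2. Of all rows, 0.777% passed in CO against CC, 0.518% in OO against OC and 0% for the interaction, for which 15 rows had an unadjusted p under 0.05 with limma, and 13 with limma-voom on the reads recovered from the table, which also called 0. The negative sign of the 5p change in OO against OC was lost without OO replicate 3 (0.12) and without OC replicate 2 (0.09). That of the 3p change was lost without these same libraries, at 0.03 and 0.12.

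Maternal diet was the second comparison. Sons of obesogenic mothers averaged 46070 ± 9014 CPM of miR-21a-5p and sons of control mothers 52502 ± 4733 CPM (SD, n = 6 each). The log2 change was -0.21 (SE 0.122, interval -0.47 to 0.06), and limma did not call it (unadjusted p = 0.116, adjusted p = 0.630). For miR-21a-3p the means were 173 ± 35.3 CPM against 210 ± 59.4 CPM, with a log2 change of -0.25 (interval -0.69 to 0.18, limma adjusted p = 0.704). That value was -0.41 without CO replicate 3 and -0.44 with log2 depth as a covariate. Both signs were negative while the median of all rows was 0.08. No row passed for maternal diet (0%), though 27 of 386 had an unadjusted p under 0.05 with limma and 25 with limma-voom, which also called 0. The 5p value was -0.11 without OO replicate 3 and -0.29 without OC replicate 2.

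The largest of the 8 contrasts for either arm was maternal diet in sons on the obesogenic diet, OO against CO. All of the CO libraries of miR-21a-5p, from 52128 to 59538 CPM, were above 2 of the OO libraries, at 48584 and 33571 CPM. The remaining OO library, at 52511 CPM, lay just above the lowest CO library, so the groups overlapped. The log2 change was -0.33 (SE 0.172, interval -0.71 to 0.05), or 0.797-fold with an interval of 0.613 to 1.04. limma gave an unadjusted p of 0.0828 and an adjusted p of 0.376, which placed it 85th of all rows by p. The median of all rows in this contrast was 0.13, so miR-21a-5p lay 0.46 below it. Without OO replicate 3 the value was -0.13. With TMM factors, which move the median of all rows from 0.13 to -0.01, it was -0.49, with an unadjusted limma p of 0.0382 and an adjusted p of 0.331. For miR-21a-3p the log2 change was -0.41 (interval -1.03 to 0.21, limma adjusted p = 0.437). It was -0.73 when CO replicate 3 was left out, and -0.25 and -0.26 when CO replicate 2 or 1 was. No row passed (0%) with limma or limma-voom, and 47 and 48 rows had an unadjusted p under 0.05.

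In sons on control diet, maternal diet gave a log2 change of -0.09 for miR-21a-5p (OC against CC, interval -0.46 to 0.29) and of -0.10 for miR-21a-3p (interval -0.72 to 0.52). Neither passed with limma, and no row did (0%), with 4 rows at an unadjusted p under 0.05, and 0 passing and 6 at that level with limma-voom. The 5p sign turned without OC replicate 3 (0.02), and the 3p sign turned without CC replicate 2 (0.01) or OC replicate 3 (0.05). With both diets obesogenic against both control, OO against CC, the changes were -0.17 for the 5p arm (interval -0.54 to 0.21, limma adjusted p = 0.811) and -0.19 for the 3p arm (interval -0.81 to 0.43, adjusted p = 0.887), where 0.259% of rows passed. Without OO replicate 3 the 5p value was 0.03. These contrasts share groups with one another, so their values are not independent.

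**Figure D3:**
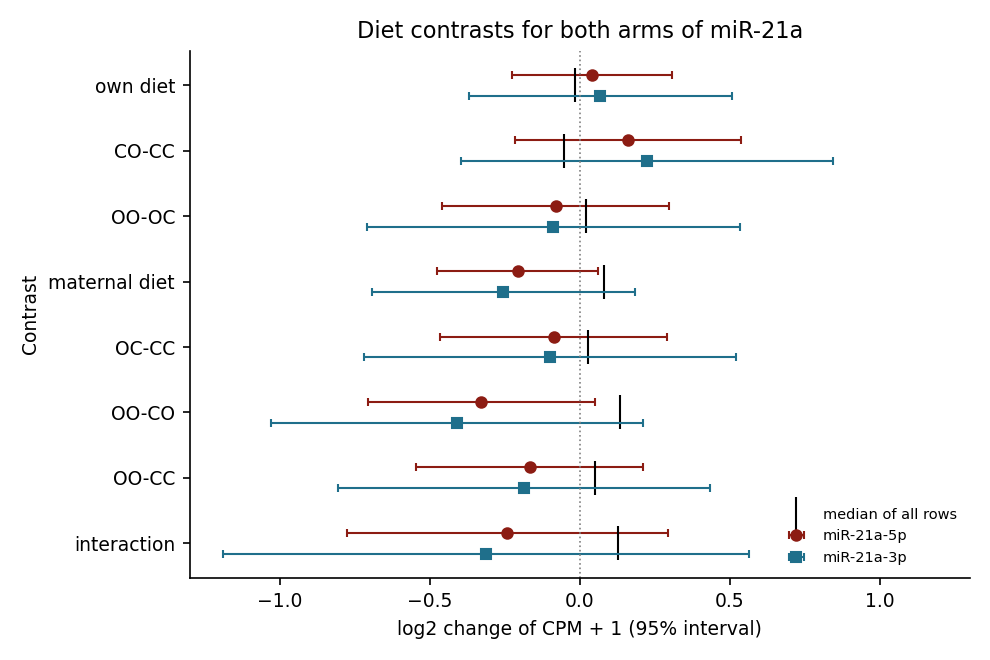
log2 change of CPM + 1 with its 95% interval for miR-21a-5p (circles) and miR-21a-3p (squares) in the 8 diet contrasts, with the median of all 386 rows as a vertical bar. Every interval includes 0, and OO against CO has the most negative value of both arms, at -0.33 and -0.41.

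The share of the summed values held by miR-21a-5p is a single value per library. Since column sums were nearly equal (0.866% to 1.17% above the CPM total), the share restates the CPM level and adds no independent evidence. It was 4.96 ± 0.878% in sons on the obesogenic diet and 4.79 ± 0.681% in sons on control diet (SD, n = 6 each), a difference of 0.170 percentage points (two-sided exact permutation test, p = 0.706, adjusted over 2 tests p = 0.706). Its sign turned without CO replicate 2. It was 4.56 ± 0.890% after obesogenic mothers and 5.20 ± 0.468% after control mothers, a difference of -0.634 points (two-sided exact permutation test, p = 0.160, adjusted p = 0.320). Without OC replicate 2 the maternal difference was -0.882 points, with an exact permutation p of 0.0433 and an adjusted p of 0.0866, and without OO replicate 3 it was -0.387 points.

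The ratio of the arms does not depend on a library's scaling and shows how unequally the strands of the hairpin were recovered. There were 318, 239 and 242 reads of miR-21a-5p per read of miR-21a-3p in CC, 201, 217 and 370 in CO, 264, 251 and 285 in OC, and 277, 287 and 241 in OO. CO held both the lowest and the highest ratio, and the other groups lay inside that range. On the log2 scale the mean over all libraries was 8.03 with an SD of 0.239. The 3p arm made up 0.387% of the sum of both arms. Of the 99 hairpins with both arms listed under a single name, 51 had more 5p and 48 more 3p, and the median size of the log2 ratio was 3.58. In 12 hairpins the ratio was larger than in miR-21a, in 5 of them toward the 5p arm, and the SD over libraries was close to the median of all hairpins, 0.249.

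Diet did not move the arm balance past the threshold. The log2 change of the 5p to 3p ratio was -0.03 for own diet (interval -0.36 to 0.30, limma adjusted p = 0.953 over 99 hairpins) and 0.05 for maternal diet (interval -0.28 to 0.38, adjusted p = 0.899). In CO against CC it was -0.06 (interval -0.53 to 0.40) and in OO against CO 0.08 (interval -0.38 to 0.55), and the interaction was 0.07 (interval -0.59 to 0.73). No hairpin passed in any of the 8 contrasts (0% in each) with limma. Between 2 and 9 hairpins had an unadjusted p under 0.05. All of these small changes took the other sign when 1 library was left out. Without CO replicate 3, CO against CC was -0.34 (interval -0.65 to -0.03, limma unadjusted p = 0.0353, adjusted p = 0.349). OO against CO was then 0.36 (interval 0.05 to 0.67, limma unadjusted p = 0.0276, adjusted p = 0.598).

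**Figure D4:**
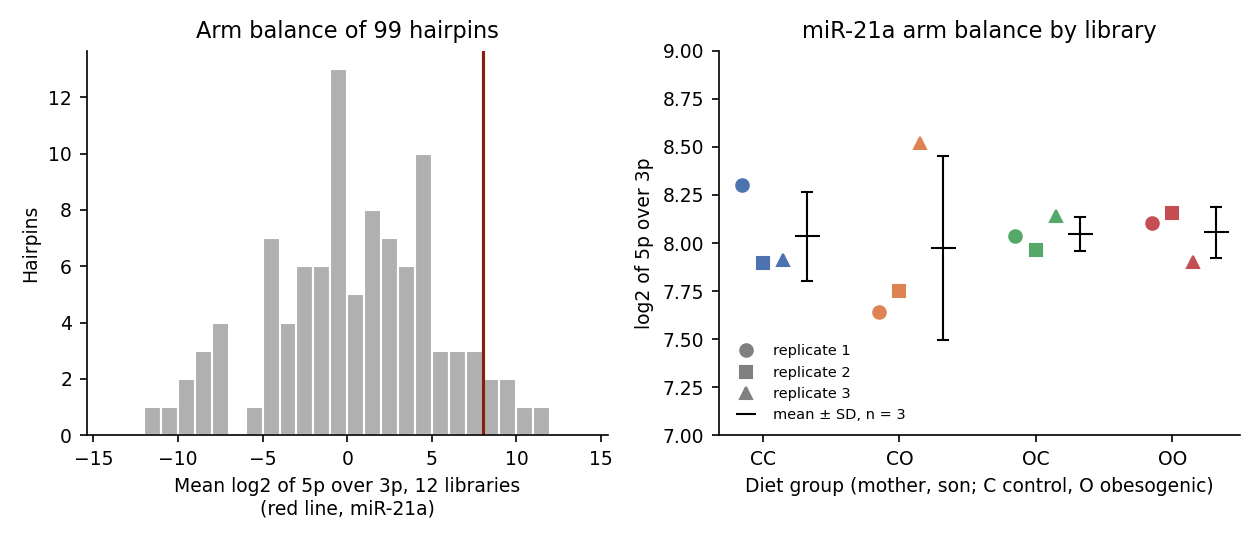
Left, the mean log2 ratio of 5p to 3p over 12 libraries for 99 hairpins, with miR-21a as the red line at 8.03; right, the same ratio of miR-21a in each library by diet group with mean and SD (n = 3), on an axis that starts at 7. CO spans the widest range, with CO replicate 3 at 8.52, and the group means lie between 7.97 and 8.05.

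The levels of both arms varied together across livers. Over the 12 libraries the log2 levels of miR-21a-5p and miR-21a-3p had a Pearson r of 0.774 and a Spearman rho of 0.839 (permutation p = 0.00226 and 0.0011, adjusted over 6 relations p = 0.00678 and 0.0033). Without OC replicate 3 and OO replicate 3, the libraries farthest from the median of the 5p arm, r was 0.760. After the group means were removed it was 0.713, so the relation was present within the diet groups. CO replicate 3 lay off the line, with a 5p level of 52128 CPM beside a 3p level of 141 CPM, and without it r was 0.875. The arms share a hairpin and a library, and 17 of the 99 hairpins had a higher r between their arms, around a median of 0.527.

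miR-21b and miR-21c were listed at much lower levels. miR-21b had a mean of 13.2 CPM (11.1 to 15.4 over the libraries) and miR-21c one of 12.4 CPM (10.1 to 14.3). The ratio of miR-21b to miR-21c was above 1 and at most 1.11 in every library. Their log2 levels had a Pearson r of 0.966 and a Spearman rho of 0.951 (permutation p = 1e-05 for each, the smallest the permutations can give, adjusted p = 6e-05), with r of 0.966 also without OC replicate 2 and OO replicate 1. As the printed sequences show, they share 16 of 21 compared positions with each other, and a longest run of 11 bases. There were 193 to 336 reads of miR-21c per M reads of miR-21a-5p. How reads that match several miRNAs were counted is not given in the sources used here, so the levels of miR-21b and miR-21c are uncertain. Some related rows had near equal means: 25.5 CPM for both miR-374b-5p and miR-374c-5p, and 8424 CPM for both miR-101a-3p and miR-101c. The rows of a library also summed to 0.866% to 1.17% more than the CPM total. Whether miR-21b and miR-21c hold some of the same reads was not tested, so their r, rho and p may not compare separate reads. Whether their reads come from miR-21a-5p was not tested either.

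Neither row passed in any of the 8 contrasts with limma. The log2 changes of miR-21b were 0.005 for own diet and -0.10 for maternal diet, and those of miR-21c were -0.01 and -0.09. In OO against CO they were -0.14 and -0.12. The relation of miR-21b to miR-21a-5p was looser than that between the arms, with r of 0.632 and rho of 0.503 (permutation p = 0.0253 and 0.0998, adjusted p = 0.0380 and 0.120). That of miR-21c had r of 0.529 and rho of 0.441 (permutation p = 0.0760 and 0.154, adjusted p = 0.0760 and 0.154).

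**Figure D5:**
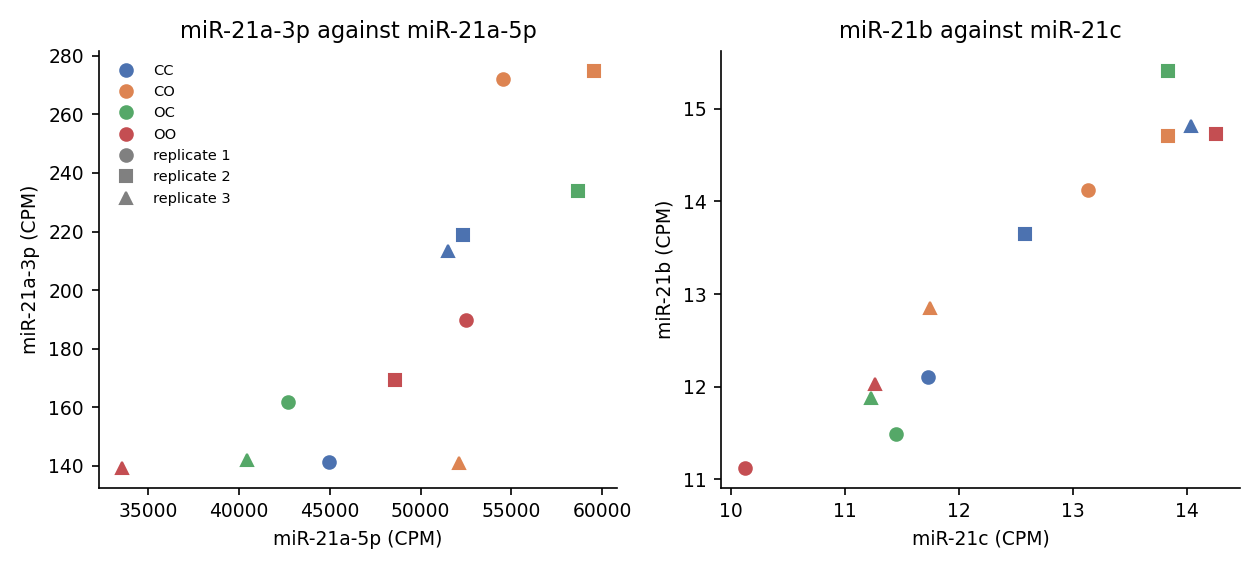
Left, miR-21a-3p against miR-21a-5p in CPM; right, miR-21b against miR-21c in CPM; 1 point per library, coloured by diet group and shaped by replicate, with axes that do not start at 0. The arms tend to rise together (Pearson r 0.774, and 0.875 without CO replicate 3), and miR-21b tracks miR-21c closely in all 12 libraries.

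For its abundance miR-21a-5p varied a good deal between livers, mainly after obesogenic mothers. Its coefficient of variation was 21.1% in OC and 22.3% in OO, but 8.18% in CC and 6.82% in CO. Among the 14 rows with a mean of at least 10000 CPM its coefficient of variation over all libraries, 15.5%, was second to that of let-7f-5p at 20.5%. The median of these rows was 11.3%, and the lowest was miR-30a-5p at 5.92%. Within groups the SD of miR-21a-5p was 0.238 on the log2 scale, against a median of 0.142 for these abundant rows and of 0.242 for all rows. The SD of miR-21a-3p within groups was 0.392, and 67 rows had a larger one.

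The rows whose log2 levels were most like those of miR-21a-5p over the 12 libraries, out of 381 others, were miR-134-5p (Pearson r 0.82), miR-21a-3p, miR-300-3p (0.71), miR-148a-3p (0.68) and miR-21b. The first and the third are of low level, with means of 1.71 and 8.82 CPM, and miR-134-5p had as few as 5 reads in a library. For miR-21a-3p the list was miR-148a-3p (r 0.81), miR-21a-5p, both arms of miR-1948 (0.74 for 5p and 0.72 for 3p) and miR-144-3p (0.69). miR-148a-3p, a hepatocyte-enriched miRNA, was thus near the top for both arms. Other hepatocyte miRNAs, namely miR-122-5p, miR-122-3p, miR-192-5p and miR-194-5p, were in neither list, and the erythroid miR-144-3p was in that of the 3p arm. miR-148a-3p passed in none of the 8 contrasts, with a log2 change of -0.10 for maternal diet. These r values describe 12 points that share library totals, and the rows were picked as the highest of many.

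Other miRNAs studied beside miR-21 gave a background for its levels. The lists were chosen with earlier results of these data known, so a passing member is no independent finding. In a list of 19 miRNAs of liver inflammation and steatohepatitis, all listed in the table and not including miR-21a, 1 fell with the sons' obesogenic diet, 0 rose and 18 did not pass, beside 0.777% of all rows that passed. The member that fell was miR-31-5p, known from epithelial cells, with a log2 change of -0.43 (SE 0.0692, limma adjusted p = 0.00743). The list's median was 0.08 beside -0.02 for all rows. Its most abundant member, miR-122-5p at 23414 CPM, had a value of -0.12 for own diet and for maternal diet. miR-29a-3p, which targets collagen mRNAs, had -0.24 and 0.12, miR-181a-5p 0.08 and -0.02, and miR-142-5p, a miRNA of blood cells, -0.18 and 0.16. For maternal diet 0 of 19 passed, 12 values were positive, and the median was 0.12 beside 0.08 for all rows, of which 0% passed. With TMM factors the list's maternal-diet median was 0.03, with 10 of 19 positive, beside 0.01 for all rows. Over all 386 rows 265 maternal-diet values were positive, and 199 with TMM factors.

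Of 16 miRNAs of stellate cells and fibrosis, 15 were listed, and 0 passed for either diet, beside 0.777% of all rows for own diet and 0% for maternal diet. Their median was -0.01 for own diet and 0.14 for maternal diet, with 13 of 15 positive for the latter. All rows had a maternal-diet median of 0.08, with 265 of 386 positive. With TMM and median-of-ratios factors the list's maternal-diet median was 0.06 and 0.07, with 10 of 15 positive in each. Of all 386 rows 199 and 213 were then positive. In OO against CO the list median was 0.30, again with 13 of 15 positive and 0 passing. All rows had a median of 0.13 there, with 272 of 386 positive (188 with TMM factors). With TMM factors this list median was 0.15, with 9 of 15 positive. Among its abundant members miR-30a-5p had a maternal-diet value of 0.06, miR-30c-5p one of 0.14 and miR-143-3p, a miRNA of smooth muscle and other mesenchymal cells, one of -0.08. The sign of the own-diet median of the stellate cell list turned with TMM factors (0.05) and with median-of-ratios factors (0.01), and the other own-diet and maternal-diet medians of both lists kept theirs. No test compared either list with miR-21a.

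Levels of markers of other cell types are given for OO and CO, the contrast with the largest miR-21a values. In this contrast 272 of all 386 rows were positive, with a median of 0.13 (188 and -0.01 with TMM factors). The sums below are at the deposited scaling and were not redone with TMM factors. Those factors were 0.825 in CO replicate 3 and 1.10 in OO replicate 3. How many of all rows had separate CO and OO ranges was not counted. The summed level of 7 leukocyte miRNAs, of 7 fixed, most of it miR-142-5p, was 2289 to 3050 CPM in CO and 3065 to 3409 CPM in OO. Among these miRNAs 7 of 7 had a positive log2 change, with a median of 0.39 (6 of 7 and 0.24 with TMM factors). Of 4 endothelial names 2 were listed, both arms of the miR-126 hairpin and so not separate markers. Their sum was 15584 to 22984 CPM in CO and 24420 to 28052 CPM in OO, with 2 of 2 positive and a median of 0.36 (0.21 with TMM factors). The sum of 6 mesenchymal miRNAs, most of it miR-143-3p, was 36929 to 46186 CPM in CO and 33772 to 36750 CPM in OO, although 5 of 6 had a positive log2 change, with a median of 0.32 (4 of 6 and 0.17 with TMM factors). The 3 erythroid rows matched from 5 fixed names, among them both arms of miR-144, summed to 1166 to 3405 CPM in CO and 1273 to 1678 CPM in OO. Of these 0 of 3 were positive, with a median of -0.51 (-0.66 with TMM factors). The row of miR-486-5p, listed jointly with miR-3107-5p at a mean of 2736 CPM, matched no fixed name and is left out. None of the marker rows of these lists passed in this contrast, in which 0% of all rows did, and none was listed at 0. The 5 listed hepatocyte miRNAs of 6 summed to 366233 to 406853 CPM in CO and 355869 to 367956 CPM in OO, with 2 of 5 positive and a median of -0.07 (1 of 5 and -0.23 with TMM factors). For 6 biliary and other epithelial miRNAs the sums were 910 to 1295 CPM in CO and 875 to 1113 CPM in OO, with 2 of 6 positive and a median of -0.14 (0 of 6 and -0.29 with TMM factors). The CO and OO sums overlapped for the erythroid, hepatocyte and epithelial lists. The part of these cell types in the miR-21a values was not tested.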

How the data were processed

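Small RNA of 12 livers was sequenced from TruSeq libraries, per the labels' protocols. The authors deposited 1 table of CPM for 386 mature miRNA rows. The submitters' processing notes list Bowtie 1.2.3. For the build, miRNA reference, row filter and multiple-match rule the entry is: not given in the sources used here. Columns were matched to samples through the column number in each description. In every column 100% of values were whole multiples of 1 step (tolerance 0.001 reads), which gave the scaling totals and reads. Column sums were 0.866% to 1.17% above the CPM total.

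The main test was limma 3.58.1 (R 4.3.3) with a mean-variance trend on log2(CPM + 1) of all 386 rows, 1 mean per group and 8 two-sided contrasts. The threshold was a Benjamini-Hochberg adjusted p under 0.05, with each contrast adjusted over its own rows. A count model was planned as the main test only for raw counts, and as an alternative on recovered reads. Arm balance used limma on log2 ratios of CPM + 1 over 99 hairpins. Shares were compared with exact permutation tests, and correlations with 100000 permutations. The fits were tested on simulated data. Python 3.11.15, pandas 2.3.3, numpy 2.4.6, scipy 1.17.1 and matplotlib 3.10.9 were used. RefSeq mature sequences (GRCm38.p6) matched 320 of 386 rows by name.

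The rule for named rows took both arms, rows with their seed, 3 neighbours on each side by mean CPM, the 5 rows most correlated with each arm, and the 4 most abundant and any passing members of each list. miR-21b, let-7f-5p and the marker lists were described beside them. 1 further list is not reported here. Members and lists were chosen with earlier results of these data known. Alternatives were pseudocounts of 0.25 and 5 CPM, a mean of at least 10 CPM, TMM and median-of-ratios factors, scaling without the 5 most abundant rows, fits of only the groups compared, limma-voom on recovered reads, log2 depth as a covariate, and leaving out each library.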

Additional observations from a re-analysis of the deposited data

How the results depend on the processing

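The 26 miR-21a results were recomputed under the alternatives, and 0 of 481 values passed its threshold. Among them the lowest adjusted p for an arm, its balance or its share was 0.0866, for the maternal difference in share without OC replicate 2. With log2 depth as a covariate the miR-21a-3p change in OO against OC was 0.025 in place of -0.09. The other sign changes came from leaving out 1 library each. Over these the share by own diet ran from -0.0143 to 0.499 points. The miR-21a-5p values ran from -0.25 to 0.016 in OC against CC, -0.29 to 0.030 in OO against CC, -0.21 to 0.12 in OO against OC and -0.023 to 0.14 for own diet. Those of miR-21a-3p ran from -0.31 to 0.051 in OC against CC, -0.24 to 0.12 in OO against OC and -0.033 to 0.23 for own diet. Arm balance ran from -0.34 to 0.10 in CO against CC, -0.058 to 0.15 in OC against CC, -0.051 to 0.15 in OO against CC, -0.083 to 0.36 in OO against CO, -0.044 to 0.083 in OO against OC, -0.095 to 0.34 for the interaction, -0.035 to 0.18 for maternal diet and -0.17 to 0.055 for own diet. For maternal diet, OO against CO, CO against CC and the interaction, both arms kept their sign in every alternative run, but their sizes moved. With a library left out, miR-21a-5p ran from -0.29 to -0.11, -0.45 to -0.13, 0.091 to 0.20 and -0.37 to -0.045 in these 4 contrasts, and miR-21a-3p from -0.41 to -0.17, -0.73 to -0.25, 0.021 to 0.54 and -0.63 to -0.10. Other settings that moved an arm by over 1.5 times were as follows. With depth as a covariate miR-21a-3p was -0.35 in OC against CC, -0.33 in OO against CC, -0.44 for maternal diet, -0.18 for the interaction and 0.11 for own diet, and miR-21a-5p was -0.16 in OC against CC and -0.047 in OO against OC. With TMM factors miR-21a-5p was 0.29 in CO against CC, -0.39 for the interaction and 0.093 for own diet, and miR-21a-3p 0.35 in CO against CC and 0.12 for own diet. With median-of-ratios factors miR-21a-5p was 0.24 in CO against CC, -0.12 in OO against OC, -0.37 for the interaction and 0.061 for own diet.

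Counts of all rows that passed also moved. For own diet 3 became 8 with median-of-ratios factors, 7 with TMM factors and 3 to 5 with a library left out. For CO against CC 3 became 10 with depth as a covariate, 1 with TMM factors, 1 with only the 2 groups compared and 1 to 4 with a library left out. For OO against OC 2 became 1 with depth as a covariate, 1 with only the 2 groups and 0 to 2 with a library left out. For OO against CC 1 became 2 with depth as a covariate, at a mean of at least 10 CPM, and with median-of-ratios or TMM factors, and 1 to 3 with a library left out. With depth as a covariate 1 row passed for maternal diet and 1 for the interaction, against 0, and in OO against CO 0 to 2 passed with a library left out. The cause was not tested. miR-21b and miR-21c rest on 64 to 317 reads per library, and miR-134-5p on as few as 5. The planned quasi-likelihood count test on recovered reads was not run; limma-voom was fitted to those reads. No paired analysis was possible because the replicate numbers only follow accession order, and the title stem common to OC replicate 2 and OO replicate 3, of unstated meaning, could tie 1 pair at most.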
